A study of Rattus norvegicus with 24 samples.

Results

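The earliest postnatal comparison of the study set sciatic nerves of Pmp22 transgenic rats (Tg) against those of wild-type rats (Wt) at postnatal day 6 (P6), across all genes. It was made up of the 8 libraries labelled P6, 4 of each genotype, out of 24 libraries that also covered embryonic day 21 (E21) and postnatal day 18 (P18). Tg rats carry additional copies of Pmp22, and the line serves as a model of Charcot-Marie-Tooth disease type 1A (CMT1A), a demyelinating neuropathy. The epineurium, the outer sheath of the nerve, had been removed before RNA extraction. Neither the sex of the rats nor the number of animals behind a library was given, and the design names the 4 libraries of a group biological replicates. Wt and Tg stand throughout for libraries so labelled.

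In the sciatic nerve, Schwann cells that have sorted a single axon wrap it with myelin during the first postnatal weeks. They do so while they leave the cell cycle and raise the transcripts of myelin proteins and of the enzymes that make cholesterol and galactolipids. Schwann cells also provide axons with trophic factors. Genes of immature or injured Schwann cells, such as Jun and Ngfr, are known to be low once myelin is formed.

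Deposited counts per library ran from 12699346 to 24875706 in P6 Wt and from 15156424 to 24126945 in P6 Tg. Levels are given below as normalized CPM, the count of a gene relative to the TMM-scaled total of its library. Differential expression means an adjusted p-value under 0.05 (edgeR's quasi-likelihood test, Benjamini-Hochberg), and every adjusted p below comes from that test. Passed and called refer to that test too, unless another fit is named. Levels of the Schwann cell markers were high in all 8 libraries, with Mbp, the gene of myelin basic protein, between 11972 and 18616 normalized CPM. As whole nerves were sequenced, fewer cells of a type and less RNA per cell cannot be told apart. Sums over the Y-linked transcripts Ddx3y, Eif2s3y and Kdm5d differed within both genotypes, with 0.0775, 64.8, 129 and 126 normalized CPM in Wt replicates 1 to 4 and 70.4, 0.0443, 0.172 and 43.2 in Tg replicates 1 to 4. Genes of other cells in the nerve varied between libraries as well, as given with the gene groups.

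Pmp22 (ENSRNOG00000003338) itself was examined first. It had 22840, 23603, 22534 and 22424 normalized CPM in Wt replicates 1 to 4 and 26175, 23550, 23861 and 24556 in Tg replicates 1 to 4. The genotypes overlapped, and the difference did not pass the test (log2 fold change 0.10 with a standard error of 0.07, adjusted p = 0.882). At P18 Pmp22 was lower in Tg (log2 fold change -0.91, adjusted p = 9.48e-10). Counts were made on rat gene models, and whether they include transcripts of the transgene is not known, so these values may not be total Pmp22. They gave no check of the labels. The gene of smallest p in the test, AC130064.1 (ENSRNOG00000056045), has no assigned function. As it was picked by these labels, it is no check of them either. It had 0 counts in every P6 Wt library and 14.5, 12.2, 13.2 and 9.61 normalized CPM in Tg replicates 1 to 4, or 223 to 276 counts. Against a floor of 3 counts per library it was at least 70.9-fold higher in Tg (adjusted p = 1.29e-09).

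Differential expression at P6 was found for 36 of 15951 tested genes (0.226%), with 21 lower (0.132%) and 15 higher (0.094%) in Tg. Lower genes included Nmnat2, Cntf, Sema5a, Maob, the myelin proteins Cd9 and Mal and the lipid enzymes Ebp, Fa2h, Ugt8 and Acss2, while Shh, Dusp4, Csrp2 and Col24a1 were among the higher ones. Most differences were small: 8 of the 36 genes exceeded 2-fold. In 32 of the 36 the 4 Tg libraries did not overlap the 4 Wt libraries, whereas Tgfa, Adcy8, Adam17 and Ick overlapped. Over all tested genes, 489 (3.07%) lay wholly lower and 451 (2.83%) wholly higher in Tg.

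The number of genes depended on single libraries and on the test. Leaving out a library gave between 9 genes (without Wt replicate 2) and 72 genes (without Tg replicate 1), with 12, 16, 14, 10 and 16 genes without Wt replicates 1 and 3 and Tg replicates 2, 3 and 4. DESeq2 over all libraries called 184 genes and shared 35 with the 36, and edgeR on the P6 libraries alone called 9 and shared 4 (AC130064.1, Nmnat2, AABR07065291.1 and Kctd11). With libraries scaled to total counts only, 11 of 31 genes were lower in Tg in place of 21 of 36, and the median of all genes stood at a log2 fold change of 0.046 in place of 0.0033. With the Y-linked level as a covariate, which was added after these levels had been seen, 22 genes passed and 20 of them were among the 36. Every one of the 36 kept its sign in each of these fits.

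**Figure D1:**
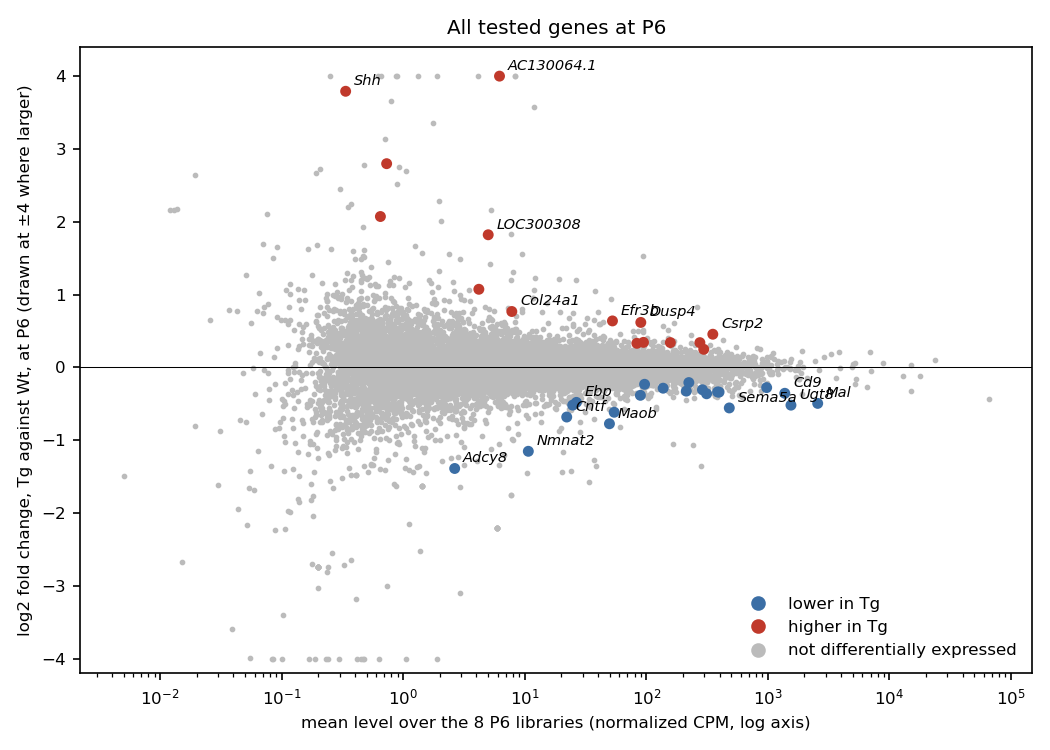
Log2 fold change of Tg against Wt at P6 (vertical axis) for every tested gene by its mean level over the 8 P6 libraries (horizontal log axis, normalized CPM), with differentially expressed genes in blue (lower in Tg) and red (higher in Tg). Differences beyond 4 are drawn at 4; most coloured points lie within 1 log2 unit of 0, and Shh lies far above at a low level.

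Nmnat2 (ENSRNOG00000027697) encodes an enzyme of NAD synthesis that is needed for axon survival. Its level was 17.8, 14.7, 12.7 and 13.6 normalized CPM in Wt replicates 1 to 4 and 8.44, 5.76, 6.88 and 5.54 in Tg replicates 1 to 4. All Tg libraries were lower than all Wt libraries, by 2.22-fold (log2 fold change -1.15 with a standard error of 0.16, adjusted p = 0.00265), and the call held in all 8 fits that left out a P6 library. At E21, Wt nerves had 1.89 ± 0.0384 normalized CPM and Tg nerves 2.08 ± 0.402 (SD, n = 4). At P18 it had 15.2 ± 3.68 in Wt and 5.36 ± 0.63 in Tg, and the genotype difference was not shown to change between P6 and P18 (difference -0.35, adjusted p = 0.394). Among the 20 tested genes of NAD synthesis and axon maintenance, Nmnat2 alone passed, and the median log2 fold change of the list was -0.04. Next in order of p was Map3k13, a kinase of the axon injury response, with a log2 fold change of -0.52 (adjusted p = 0.641).

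Cntf (ENSRNOG00000012460), the ciliary neurotrophic factor of myelinating Schwann cells, had 26.0, 29.4, 29.1 and 24.4 normalized CPM in Wt replicates 1 to 4 and 19.6, 15.2, 18.3 and 15.1 in Tg replicates 1 to 4. Its lowest Wt library stood above its highest Tg library, and the difference was 1.6-fold (log2 fold change -0.68 with a standard error of 0.10, adjusted p = 0.00432) and passed in all 8 fits without a library. In Wt, Cntf rose from 6.12 ± 0.838 normalized CPM at E21 to 409 ± 43.2 at P18 (SD, n = 4). Its genotype difference was larger at P18 than at P6 (log2 -1.58 at P18, change -0.90, adjusted p = 0.000127). Of 22 tested neurotrophic factors and cytokines, Cntf was lower, none was higher, and the median was -0.06. Nrg1, the neuregulin that controls Schwann cell myelination, had 2.02, 2.61, 2.02 and 2.39 normalized CPM in Wt replicates 1 to 4 and 5.0, 3.28, 4.24 and 3.16 in Tg replicates 1 to 4. Its Tg libraries all lay above its Wt libraries, yet it did not pass (log2 fold change 0.77 with a standard error of 0.18, adjusted p = 0.0673). DESeq2 over all libraries called Nrg1 higher in Tg, whereas limma voom did not. None of the 22 tested receptors of these factors passed. The receptor subunits Il6st and Lifr, which bind ciliary neurotrophic factor together with its own receptor, came next with log2 fold changes of 0.20 (adjusted p = 0.508) and 0.24 (adjusted p = 0.56).

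Sema5a (ENSRNOG00000011977) is a transmembrane semaphorin, one of the axon guidance proteins. It had 622, 555, 602 and 513 normalized CPM in Wt replicates 1 to 4 and 434, 354, 432 and 340.1 in Tg replicates 1 to 4, without overlap, and was 1.47-fold lower in Tg (log2 fold change -0.56 with a standard error of 0.10, adjusted p = 0.0211). This call was less firm, since it held in 3 of the 8 fits without a library: it was lost without Wt replicates 1, 2 or 3 and without Tg replicates 2 or 4. Sema5a was the single one of 31 tested semaphorins, plexins and neuropilins to pass. In 5 of the 31 the Tg libraries lay wholly below the Wt libraries and in none wholly above, against 3.07% and 2.83% of all genes, and the median was -0.02. The next by p was Sema4g (log2 fold change -0.25, adjusted p = 0.217), which DESeq2 over all libraries called lower in Tg and limma voom did not.

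Maob (ENSRNOG00000029778), monoamine oxidase B of the outer mitochondrial membrane, had 76.4, 62.3, 60.7 and 51.5 normalized CPM in Wt replicates 1 to 4 and 43.0, 34.0, 38.0 and 31.9 in Tg replicates 1 to 4. No library overlapped, though Wt replicate 1 stood well above the other Wt libraries. The gene was 1.71-fold lower in Tg (log2 fold change -0.77 with a standard error of 0.15, adjusted p = 0.0279), a call that held in 2 of the 8 fits, those without Wt replicate 4 and without Tg replicate 1. By P18 its level was 271 ± 55.9 in Wt and 54.6 ± 5.55 in Tg (SD, n = 4), a log2 fold change of -2.31. Its paralogue Maoa, with a log2 fold change of -0.24 at P6, did not pass (adjusted p = 0.397), and no other gene of the 14 tested for monoamine and aldehyde metabolism did.

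Shh (ENSRNOG00000006120), the hedgehog ligand that Schwann cells express after nerve injury, was near the limit of detection in Wt. It had 0, 0.0803, 0.0749 and 0 normalized CPM in Wt replicates 1 to 4, or 0 to 2 counts, and 0.584, 0.488, 0.631 and 0.831 in Tg replicates 1 to 4, or 9 to 21 counts. Every Tg library was above every Wt library, and Tg was at least 3.62-fold higher against a floor of 3 counts per library (adjusted p = 0.00432, passed in all 8 fits without a library). On the P6 libraries alone Shh was not called by edgeR or by DESeq2. At P18 it reached 3.0 ± 0.346 normalized CPM in Wt against 39.5 ± 6.98 in Tg (SD, n = 4). The other 15 tested genes of the hedgehog pathway did not pass, among them the ligand Dhh, the receptors Ptch1 and Smo and the target Gli1, and the median of the list was -0.04. Disp1, which releases hedgehog ligands from the cell, followed by p with a log2 fold change of -0.18 (adjusted p = 0.634).

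**Figure D2:**
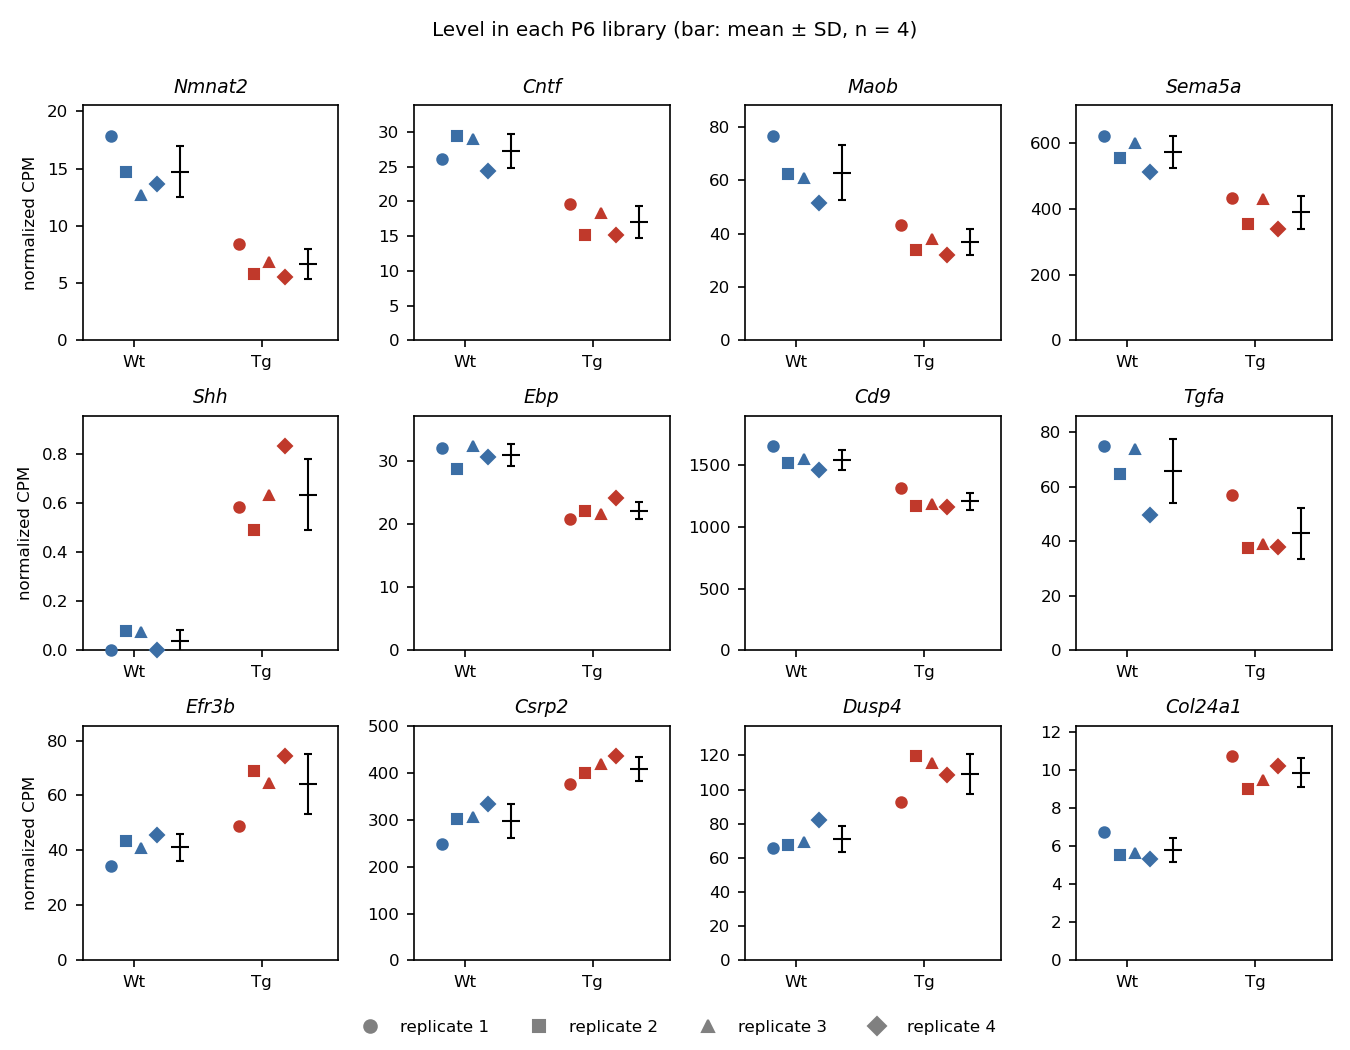
Normalized CPM of 12 differentially expressed genes in each P6 library, by genotype, each axis starting at 0; the bar beside the points is the mean ± SD of 4 libraries. In 11 of the panels the genotypes are apart, and in Tgfa the highest Tg library, replicate 1, overlaps Wt.

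Among the lower genes, Cd9 and Mal encode myelin proteins, and Fa2h, Ugt8, Acss2 and Ebp encode enzymes of lipid synthesis. Cd9 (ENSRNOG00000019556), a tetraspanin of the myelin sheath, had 1656, 1518, 1550 and 1459 normalized CPM in Wt replicates 1 to 4 and 1313, 1170, 1187 and 1166 in Tg replicates 1 to 4. Its Wt and Tg libraries were apart, with Tg replicate 1 the highest of the Tg libraries, and the decrease of 1.28-fold was found in all 8 fits without a library (log2 fold change -0.35 with a standard error of 0.06, adjusted p = 0.0108). Mal (ENSRNOG00000015445), a proteolipid of compact myelin, was at 3004 ± 281 in Wt and 2135 ± 189 in Tg (SD, n = 4; log2 fold change -0.49 with a standard error of 0.10, adjusted p = 0.0353). The call of Mal held in 2 of the 8 fits and was lost with total counts only and with the replicate block. Both belong to the 29 tested genes of the myelin protein list, of which these 2 were lower and none was higher. Wholly lower Tg libraries were seen in 9 of the 29 genes and wholly higher ones in none, against 3.07% and 2.83% of all genes, and the median log2 fold change was -0.17. The transcripts of the list summed to 59978, 62964, 64730 and 61528 normalized CPM in Wt replicates 1 to 4 and to 61992, 56295, 55032 and 57499 in Tg replicates 1 to 4, where Tg replicate 1 lay above Wt replicates 1 and 4.

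Mbp, the myelin basic protein gene, had 14683, 16665, 18616 and 17114 normalized CPM in Wt replicates 1 to 4 and 14650, 13424, 11972 and 13454 in Tg replicates 1 to 4. Its highest Tg library stood just below its lowest Wt library (log2 fold change -0.33 with a standard error of 0.11, adjusted p = 0.341). Of the transcription factors that drive myelin genes, Egr2 was at 219 ± 17.9 in Wt and 226 ± 16.5 in Tg (SD, n = 4; log2 fold change 0.05 with a standard error of 0.14, adjusted p = 0.995), and Sox10 at 282 ± 41.1 and 272 ± 27.7 (log2 fold change -0.06 with a standard error of 0.15, adjusted p = 0.992). None of 21 tested myelination transcription factors and regulators passed, none had groups without overlap, and their median was 0.03. Nearest to the threshold were the histone deacetylase Hdac2 (adjusted p = 0.699) and Wwtr1, a coactivator of TEAD factors (adjusted p = 0.745).

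Fa2h (ENSRNOG00000018950) makes the hydroxylated fatty acids of myelin galactolipids and had 418, 459, 429.7 and 464 normalized CPM in Wt replicates 1 to 4 against 371, 352, 334 and 343 in Tg replicates 1 to 4 (log2 fold change -0.34 with a standard error of 0.06, adjusted p = 0.015). Ugt8 (ENSRNOG00000009345), which builds galactosylceramide from such ceramides, was at 1823 ± 191 in Wt and 1274 ± 122 in Tg (SD, n = 4; log2 fold change -0.52 with a standard error of 0.11, adjusted p = 0.0429). Both enzymes act in the same branch of lipid synthesis, and both had Tg libraries wholly below the Wt libraries. Acss2 (ENSRNOG00000018755), which makes acetyl-CoA from acetate, had 99.5, 91.2, 105 and 109 in Wt replicates 1 to 4 and 66.9, 80.1, 78.4 and 84.7 in Tg replicates 1 to 4 (log2 fold change -0.38 with a standard error of 0.07, adjusted p = 0.0296). Here Tg replicate 1 was lowest and the gap to the lowest Wt library was narrow. The call of Fa2h held in 4 of the 8 fits without a library, and those of Ugt8 and Acss2 in 2 each.

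Ebp (ENSRNOG00000004903), a sterol isomerase of late cholesterol synthesis, had 32.2, 28.7, 32.4 and 30.7 normalized CPM in Wt replicates 1 to 4 and 20.8, 22.1, 21.7 and 24.2 in Tg replicates 1 to 4. The libraries were well apart, and Ebp had the smallest p of all lower genes (log2 fold change -0.48 with a standard error of 0.07, adjusted p = 0.00191, passed in all 8 fits without a library). It was the single gene to pass among 24 tested genes of sterol synthesis, yet 22 of the 24 had a log2 fold change below 0, as did 7799 of all 15951 tested genes. The median of the list was -0.28, beside 0.0033 over all genes, and 10 of the 24 had Tg libraries wholly below Wt (3.07% of all genes). Fdps, an enzyme of the isoprenoid steps, was next in order (log2 fold change -0.31 with a standard error of 0.07, adjusted p = 0.0598). DESeq2 over all libraries and limma voom called Fdps lower in Tg.

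**Figure D3:**
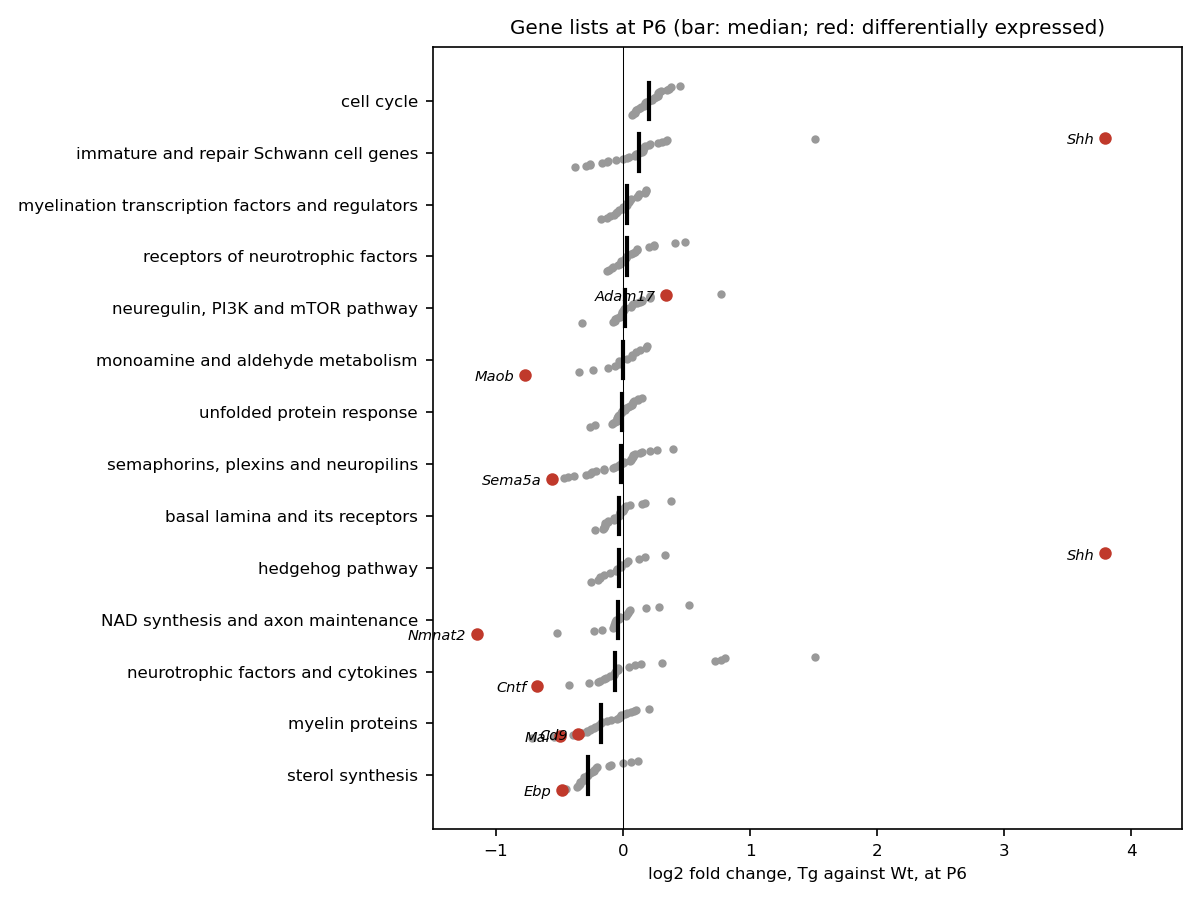
Log2 fold change of Tg against Wt at P6 (horizontal axis) for the tested members of 14 gene lists, with differentially expressed genes in red and named and a bar at the median of each list. Medians run from -0.28 for sterol synthesis to 0.21 for the cell cycle, and single genes stand apart from lists centred near 0.

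The sequence before the start sites of Cntf, Kctd11 and Mal is shown because all 3 matched TGANTCA, where N is any base. That of Ebp is shown because it led the lower genes. These genes were chosen after the matches were seen. The sequences were taken from RefSeq promoter windows of the assembly GRCr8, which is a later assembly than the rn6 of the counts. Of the 36 genes 35 were looked up. A window of 300 bases, from 250 before to 50 after the annotated start, was found for 22 of them, 16 lower and 6 higher in Tg. Capitals mark every match, on either strand, to TGANTCA for the AP-1 motif, CCAAT for the box of that name, ACAAAG for the SOX core or GGAATG for the TEAD motif, and the 250 bases upstream are printed on the strand of the gene.
Cntf (GRCr8 chr1:219314536-219314785, minus strand): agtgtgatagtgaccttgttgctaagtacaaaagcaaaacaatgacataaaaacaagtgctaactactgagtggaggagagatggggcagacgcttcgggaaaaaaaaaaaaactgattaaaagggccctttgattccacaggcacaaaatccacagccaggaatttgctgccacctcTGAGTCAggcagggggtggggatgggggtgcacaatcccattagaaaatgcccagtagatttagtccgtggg
Kctd11 (GRCr8 chr10:55103456-55103705, minus strand): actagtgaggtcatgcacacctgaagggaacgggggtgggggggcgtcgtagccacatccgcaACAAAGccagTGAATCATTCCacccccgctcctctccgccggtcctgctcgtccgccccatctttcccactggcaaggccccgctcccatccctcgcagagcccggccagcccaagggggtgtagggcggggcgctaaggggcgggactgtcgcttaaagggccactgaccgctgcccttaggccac
Mal (GRCr8 chr3:135341424-135341673, minus strand): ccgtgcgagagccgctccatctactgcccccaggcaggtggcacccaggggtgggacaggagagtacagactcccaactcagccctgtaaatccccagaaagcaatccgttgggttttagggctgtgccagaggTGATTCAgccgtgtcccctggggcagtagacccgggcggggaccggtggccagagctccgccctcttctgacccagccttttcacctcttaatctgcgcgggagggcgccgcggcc
Ebp (GRCr8 chrX:16971212-16971461, plus strand): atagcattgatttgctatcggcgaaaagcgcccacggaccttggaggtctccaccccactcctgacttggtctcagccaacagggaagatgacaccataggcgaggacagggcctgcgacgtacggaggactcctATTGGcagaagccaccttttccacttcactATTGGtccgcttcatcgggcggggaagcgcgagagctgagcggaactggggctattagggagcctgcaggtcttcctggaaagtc
With the annotated start counted as 0, TGAGTCA began at -72 in Cntf, TGAATCA at -177 in Kctd11 and TGATTCA at -116 in Mal, where in Kctd11 it overlapped the TEAD match. Of the 16 windows of lower genes, 3 (18.8%) held TGANTCA, against 5.1% of the windows of 10563 tested genes. Ebp held CCAAT on the reverse strand at -115 and -85. CCAAT was in 4 of the 16 windows (25%), those of Ebp, Acss2, Fa2h and Maob, and in 37.1% of all. The EGR letters GCGTGGGNG were in 2 (12.5%), Cmtm6 and Micall1, against 3.11%, and the sterol response letters TCACNCCAC in 1 (6.25%), Pea15, against 1.14%. Of the remaining letters, ACAAAG was found in 1 lower window (13.4% of all) and GGAATG in 2 (11.1% of all), and among the 6 windows of higher genes the single match was GGAATG in Col24a1. Overlap between motifs was not removed from these counts, and a match is a description of letters only.

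Further lower genes act in signalling and in membrane traffic. Tgfa (ENSRNOG00000016182), a ligand of the EGF receptor, had 75.0, 64.9, 73.8 and 49.8 normalized CPM in Wt replicates 1 to 4 and 57.1, 37.7, 39.1 and 38.0 in Tg replicates 1 to 4 (log2 fold change -0.61 with a standard error of 0.12, adjusted p = 0.0296). Tg replicate 1 lay above Wt replicate 4, and the other Tg libraries lay below all Wt libraries. Micall1 (ENSRNOG00000026212), an adaptor of recycling endosomes, had 246, 248, 234 and 221 in Wt replicates 1 to 4 and 200.0, 199, 169 and 189 in Tg replicates 1 to 4 (log2 fold change -0.32 with a standard error of 0.06, adjusted p = 0.0111). Cdc42se2 (ENSRNOG00000042449), a small effector of the GTPase Cdc42, had 104, 106, 105 and 102 and 91.5, 88.8, 87.6 and 88.1 in the same order (log2 fold change -0.23 with a standard error of 0.04, adjusted p = 0.0108). Neither gene overlapped between genotypes, and for Cdc42se2 the spread within a genotype was among the narrowest. Kctd11 (ENSRNOG00000015669), an adaptor of a ubiquitin ligase that restrains hedgehog signalling, had 28.3, 30.4, 28.5 and 29.6 in Wt replicates 1 to 4 and 18.4, 21.8, 19.8 and 21.6 in Tg replicates 1 to 4, without overlap (log2 fold change -0.52 with a standard error of 0.10, adjusted p = 0.0211). In the 8 fits without a library Cdc42se2 passed in 6, Micall1 in 5, Kctd11 in 4 and Tgfa in 2.

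Of the other lower genes, Adcy8, an adenylyl cyclase, was at 3.83 ± 1.29 normalized CPM in Wt against 1.47 ± 0.594 in Tg (SD, n = 4; log2 fold change -1.39 with a standard error of 0.28, adjusted p = 0.0321). It was the largest decrease by fold among the 21, at a low level, and Wt replicate 4 overlapped Tg replicate 1. Cmtm6, a MARVEL domain membrane protein, was at 352 ± 22.6 and 274 ± 18.3 (log2 fold change -0.36), and Pea15, a death effector domain protein that binds ERK, at 1071 ± 66.6 and 884 ± 65.1 (-0.28). Rap1gds1, an exchange factor of small GTPases, had a log2 fold change of -0.31, Saraf, an inhibitor of store-operated calcium entry, one of -0.28, and Man1b1, a mannosidase of the endoplasmic reticulum, one of -0.21. These 3 were the smallest differences of the lower group apart from Cdc42se2 and Pea15, and their libraries did not overlap. LOC100364435, which has no assigned function here, was at 431 ± 35.4 in Wt and 341 ± 24.8 in Tg (log2 fold change -0.34 with a standard error of 0.07, adjusted p = 0.0456). Each of these 7 genes passed in at most 3 of the 8 fits without a library.

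Genes higher in Tg were fewer. Dusp4 (ENSRNOG00000011921), a phosphatase of ERK and other MAP kinases, had 65.7, 67.5, 69.0 and 81.9 normalized CPM in Wt replicates 1 to 4 and 92.8, 119.6, 115 and 109 in Tg replicates 1 to 4 (log2 fold change 0.62 with a standard error of 0.12, adjusted p = 0.0218). Csrp2 (ENSRNOG00000003772), a LIM domain protein of the actin cytoskeleton, had 248, 301, 305 and 333 and 376, 400.0, 419 and 435 in the same order (log2 fold change 0.46 with a standard error of 0.08, adjusted p = 0.0163). For both genes Wt replicate 4 was the highest Wt library and Tg replicate 1 the lowest Tg library, still without overlap, and the calls held in 2 of the 8 fits without a library for Dusp4 and in 4 for Csrp2. Efr3b (ENSRNOG00000012950), which anchors a phosphatidylinositol kinase at the plasma membrane, had 34.3, 43.6, 41.0 and 45.8 in Wt replicates 1 to 4 and 49.0, 68.8, 64.6 and 74.3 in Tg replicates 1 to 4 (log2 fold change 0.64 with a standard error of 0.11, adjusted p = 0.0108). Here too Tg replicate 1 was close to Wt replicate 4, and the call held in 7 of the 8 fits, all but that without Wt replicate 1.

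Col24a1 (ENSRNOG00000014143), a fibrillar collagen, had 6.74, 5.54, 5.62 and 5.32 normalized CPM in Wt replicates 1 to 4 and 10.7, 9.0, 9.46 and 10.2 in Tg replicates 1 to 4 (log2 fold change 0.77 with a standard error of 0.15, adjusted p = 0.0233). Lrp4 (ENSRNOG00000015285), a receptor of agrin, had 85.4, 83.1, 82.2 and 83.3 and 94.3, 108, 104 and 118 in the same order (log2 fold change 0.34 with a standard error of 0.07, adjusted p = 0.0321). The Wt libraries of Lrp4 lay close together and the Tg libraries spread upwards from them. Of the 8 fits without a library, Col24a1 passed in 3 and Lrp4 and Eif4g3 in 1 each. Eif4g3 (ENSRNOG00000014368), a scaffold of translation initiation, had 273, 279.5, 255 and 277 in Wt replicates 1 to 4 and 314, 328, 315 and 332 in Tg replicates 1 to 4 (log2 fold change 0.25 with a standard error of 0.05, adjusted p = 0.0388), and Eif1b, another initiation factor, had a log2 fold change of 0.33.

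Adam17, the sheddase that cleaves neuregulin and Tgfa precursors, was at 243 ± 18.8 normalized CPM in Wt against 308 ± 35.3 in Tg (SD, n = 4; log2 fold change 0.34 with a standard error of 0.07, adjusted p = 0.0405). It was the single gene to pass of 26 tested in the neuregulin, PI3K and mTOR list, whose median was 0.01. Ick, a kinase of primary cilia, was at 139 ± 14.4 and 176 ± 17.9 (log2 fold change 0.34 with a standard error of 0.07, adjusted p = 0.0479). Both genes overlapped between the genotypes. With RLE size factors Adam17, Eif1b and Ick were no longer called. In the fits without a library these 3 passed in 2 of 8 each.

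The last higher genes carry placeholder names. AABR07065291.1 (ENSRNOG00000049801) had 0.155, 0.201, 0.0749 and 0.244 normalized CPM in Wt replicates 1 to 4 and 1.49, 1.2, 1.49 and 0.989 in Tg replicates 1 to 4 (log2 fold change 2.80 with a standard error of 0.47, adjusted p = 0.0108), and AABR07059002.1 (ENSRNOG00000056565) had 0.233, 0.402, 0.15 and 0.162 and 1.04, 1.11, 1.03 and 1.07 in the same order (log2 fold change 2.07 with a standard error of 0.36, adjusted p = 0.0111). LOC300308 (ENSRNOG00000048230) had 2.64, 2.77, 1.57 and 1.79 in Wt replicates 1 to 4 and 12.3, 7.58, 6.08 and 5.26 in Tg replicates 1 to 4 (log2 fold change 1.82 with a standard error of 0.35, adjusted p = 0.0256). All 3 were without overlap, at levels of few counts for both AABR genes. LOC300308 passed in 1 of the 8 fits without a library. RSEM divides reads that fit several genes among them, so levels of genes with near-identical copies are uncertain.

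Genes of dividing cells lay on the higher side without any call in edgeR's test. All 25 tested cell cycle genes had a log2 fold change above 0, as did 8152 of all 15951 tested genes. The list had a median of 0.21 and a range from 0.07 to 0.45, and in 4 of the 25 the Tg libraries lay wholly above Wt (2.83% of all genes). Cenpf, a kinetochore protein, had 38.4, 40.2, 38.5 and 37.1 normalized CPM in Wt replicates 1 to 4 and 49.3, 52.4, 55.0 and 43.9 in Tg replicates 1 to 4 (log2 fold change 0.38 with a standard error of 0.09, adjusted p = 0.0694). Mki67, the marker of cycling cells, was at 116 ± 4.02 and 141 ± 13.9 (SD, n = 4; log2 fold change 0.28 with a standard error of 0.08, adjusted p = 0.199). DESeq2 over all libraries called both Cenpf and Mki67 higher in Tg, and limma voom called Cenpf. By edgeR on the P6 libraries alone, neither was called. Summed over the list, levels were 1036, 990.2, 1070 and 1059 in Wt replicates 1 to 4 and 1065, 1268, 1308 and 1166 in Tg replicates 1 to 4, where Wt replicate 3 overlapped Tg replicate 1. In Wt, Mki67 fell between E21 and P18 (log2 -3.89, adjusted p = 6.06e-20).

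Immature and repair Schwann cell genes gave a single call at P6. Apart from Shh, none of the 29 tested passed, and the median was 0.13. Jun, the transcription factor of the repair state, had 61.0, 76.6, 83.0 and 69.6 normalized CPM in Wt replicates 1 to 4 and 63.8, 66.5, 55.9 and 56.6 in Tg replicates 1 to 4 (log2 fold change -0.26 with a standard error of 0.11, adjusted p = 0.558). At P18 Jun was higher in Tg (log2 fold change 1.22, adjusted p = 1.56e-08), and this difference from P6 passed (log2 1.48, adjusted p = 6.97e-07). The adhesion molecule Ncam1 was next in the list (log2 fold change 0.21 with a standard error of 0.07, adjusted p = 0.418). No call was made among 25 tested genes of the unfolded protein response, with a median of -0.00884. Its smallest p belonged to Ddit3 (log2 fold change -0.22, adjusted p = 0.731) and Ppp1r15a (0.12, adjusted p = 0.82). The 26 tested genes of the basal lamina and its receptors gave none either (median -0.03), led by Utrn (-0.22, adjusted p = 0.402) and Lama4 (0.15, adjusted p = 0.609).

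Markers of the other cells of a nerve gave no differentially expressed gene in any of 11 lists. Of all 15951 tested genes, 7799 had values below 0 and 8152 above. All 11 skeletal muscle genes had values below 0 (median -0.71), and their sum was 215, 101, 43.4 and 34.1 normalized CPM in Wt replicates 1 to 4 and 143, 25.1, 53.9 and 30.9 in Tg replicates 1 to 4, high in replicate 1 of both genotypes. Acta1 and Myh3, its first markers, had log2 fold changes of -0.84 and -1.12. All 9 adipocyte genes had values above 0 (median 0.61), and they summed to 267, 162, 203 and 534 in Wt replicates 1 to 4 and 317, 456, 517 and 501 in Tg replicates 1 to 4. Wt replicate 4 was the highest of all in this sum. Adipoq and Plin1 had log2 fold changes of 0.64 and 0.76.

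Of 12 macrophage genes 11 had values above 0 (median 0.22), and their sum ran from 243 to 304 in Wt and from 249 to 355 in Tg. Cd68 and Csf1r had log2 fold changes of 0.20 and 0.24, and Cx3cr1, with the smallest p, one of 0.59 (adjusted p = 0.34). Of 11 axon and neuron genes 10 had values above 0 (median 0.18), with a sum from 272 to 375 in Wt and from 350.4 to 551 in Tg, and Nefl and Nefm at 0.52 and 0.57. The mast cell and T cell genes summed from 184 to 273 in Wt and from 163 to 315 in Tg (Cpa3 0.30, Kit 0.25), and the erythrocyte genes from 691 to 1184 in Wt and from 653 to 1861 in Tg (Alas2 0.16, Hba-a1 -0.01).

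Fibroblast genes had a median of -0.10 and summed from 35447 to 45486 in Wt and from 33650 to 44459 in Tg (Col1a1 -0.12, Col1a2 -0.16). Perineurial genes summed from 558 to 657 in Wt and from 553 to 609 in Tg (Slc2a1 -0.18, Cldn1 -0.15), and endothelial genes from 468 to 532 in Wt and from 441 to 534 in Tg (Cdh5 -0.01, Cldn5 -0.45). The 9 endothelial genes had a median of -0.03, with 7 below 0 and 2 above. Genes of pericytes and smooth muscle summed from 683 to 746 in Wt and from 653 to 769 in Tg (Rgs5 -0.10, Acta2 -0.18). Those of non-myelinating Schwann cells summed from 752 to 877 in Wt and from 777 to 849 in Tg. Of these 8 genes 4 had values below 0 and 4 above (median -0.03), with L1cam at 0.17 and Ncam1 at 0.21. The immediate early genes summed from 141 to 203 in Wt and from 164 to 210.1 in Tg (Fos 0.15, Fosb -0.33). The ranges of the genotypes overlapped in all 11 lists of other cells and in the immediate early genes. What part these cells have in the 36 genes was not tested.

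**Figure D4:**
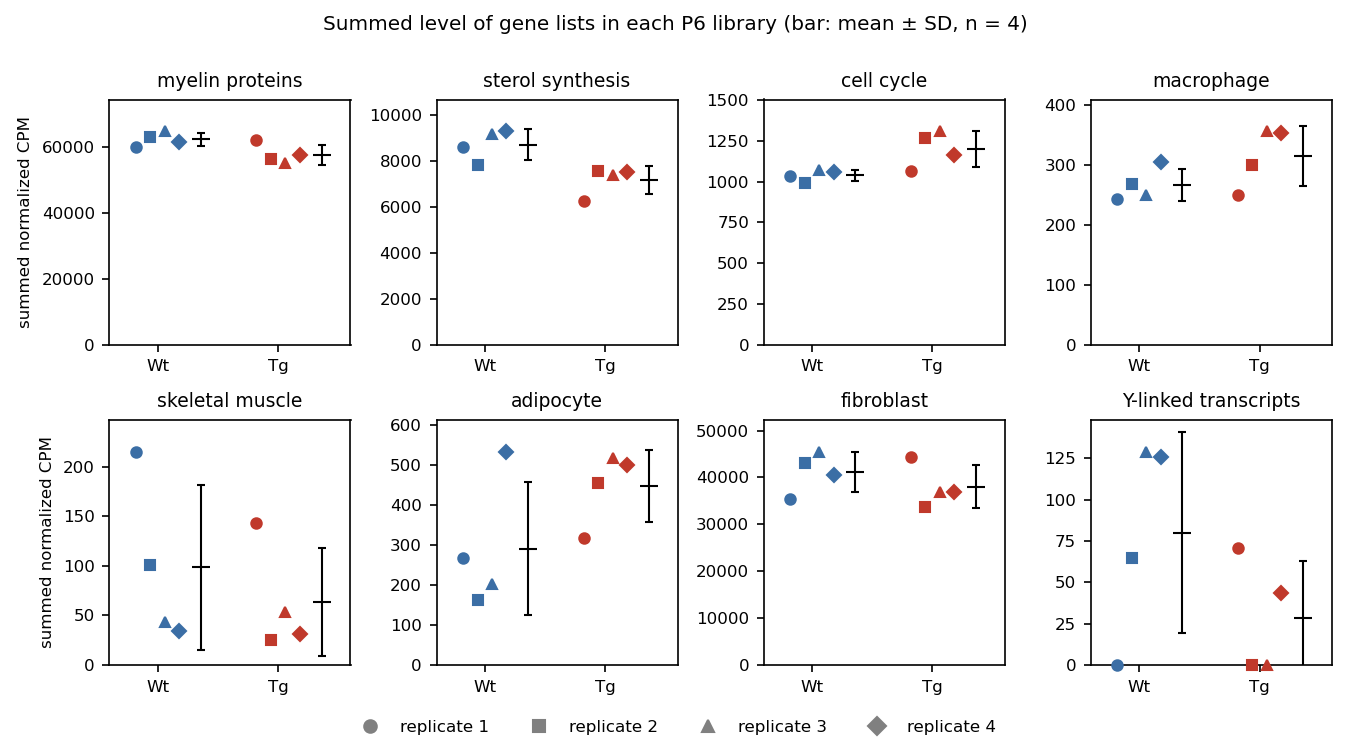
Summed normalized CPM of 7 gene lists and of the Y-linked transcripts in each P6 library, by genotype, each axis starting at 0, with the mean ± SD of 4 libraries beside the points. The sterol synthesis sum is lower in all Tg libraries, the myelin protein, cell cycle, macrophage, adipocyte, muscle and fibroblast sums overlap, and the Y-linked sum differs widely within both genotypes.

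Set beside the other ages, the P6 differences were seen again at P18 in other libraries. At P18, where 4105 genes (25.7%) were differentially expressed, 35 of the 36 were so, and all 36 had the same sign as at P6, as did 9127 of the 15951 tested genes. The median log2 fold change of the 21 lower genes went from -0.02 (E21) to -0.38 (P6) and -1.25 (P18), and that of the 15 higher genes from 0.01 to 0.64 and 1.18. The difference was larger at P18 in 29 of the 36 and in 11801 of all 15951 tested genes. The change of the genotype difference from P6 to P18 passed for 22 of them, 18 lower and 4 higher genes, and for 1646 of all genes (10.3%). All 22 differences were larger at P18, as were 1603 of the 1646, led by Dusp4 (log2 1.55), Maob (-1.54), Acss2 (-1.44) and Ugt8 (-1.40). The P6 libraries that chose these genes also enter this difference.

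At E21, AC130064.1 was the one gene of the 36 that was differentially expressed, of 2 in all (0.0125%), and 22 of the 36 had the sign they had at P6. A change of the genotype difference between E21 and P6 passed for 0 genes (0%) in edgeR's test, where 857 had an unadjusted p under 0.05, for 0 in limma voom and for 35 in DESeq2. The smallest adjusted p among the 36 was that of Micall1 (log2 -0.46, adjusted p = 0.104). In edgeR and limma voom, no P6 difference was thus shown to differ from that at E21.

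The genes lower in Tg were mostly ones that rise in normal nerve. In Wt, between E21 and P18, a comparison without any P6 library, 20 of the 21 lower genes rose and 1, LOC100364435, fell, where 5102 (32%) and 5313 (33.3%) of all genes did. Their median change was a log2 of 2.81, with Cntf at 6.07, Ugt8 at 4.70 and Fa2h at 4.14. Of the 15 higher genes 8 rose and 4 fell in Wt, with a median of 0.34. Shh (5.36) and Col24a1 (3.49) rose, and Dusp4 (-0.65) and Adam17 (-0.93) fell.

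**Figure D5:**
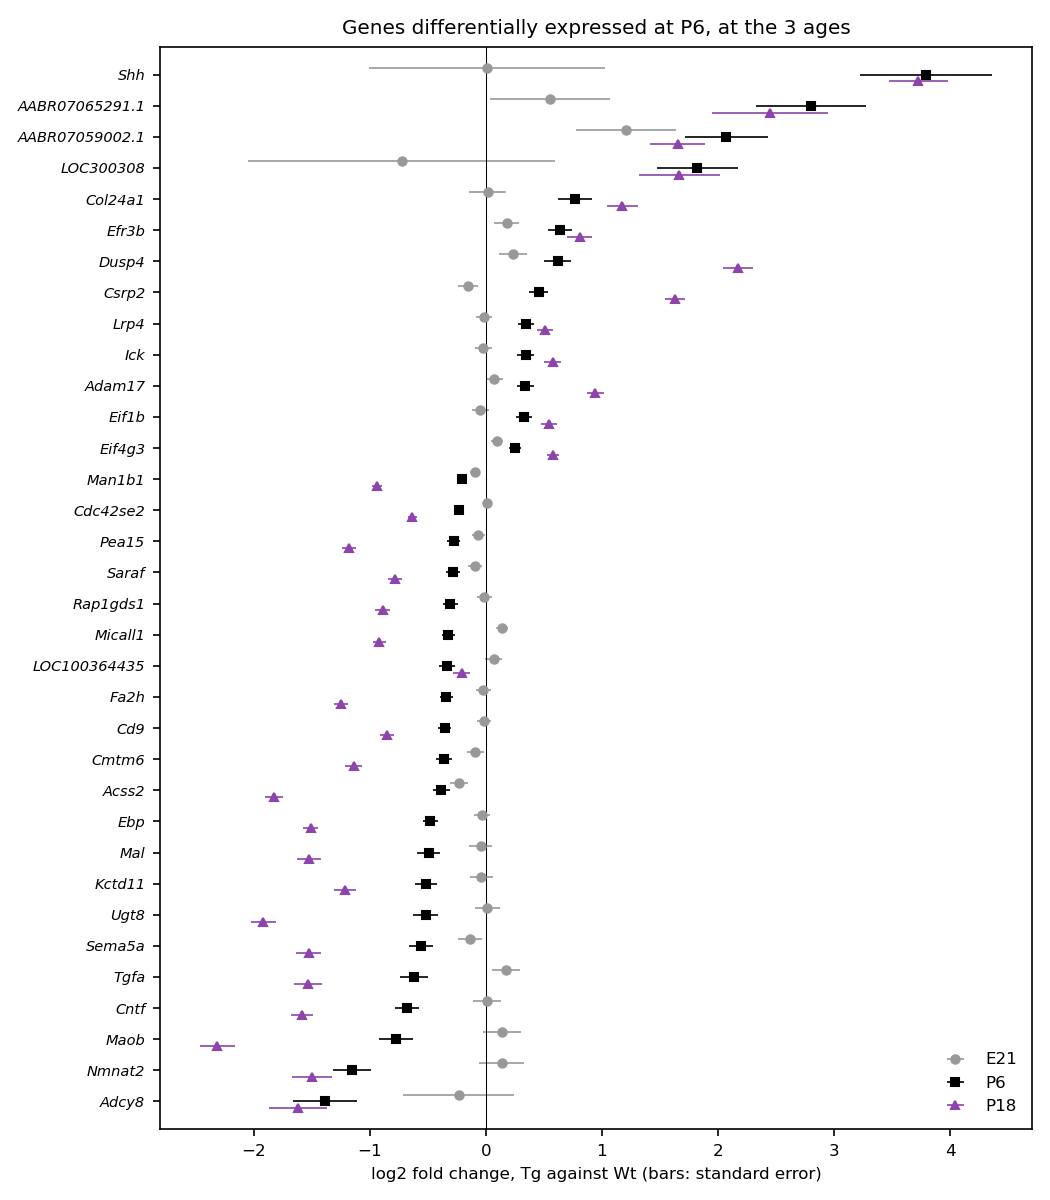
Log2 fold change of Tg against Wt with its standard error (horizontal axis) at E21, P6 and P18 for 34 of the 36 genes differentially expressed at P6; AC130064.1, with 0 counts in P6 Wt, is among the 2 left out. Points at E21 lie near 0 for most genes, and those at P18 lie further out than at P6 for most of the lower genes.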

How the data were processed

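RNA of rat sciatic nerves was sequenced by the authors as single-end 50 bp reads, aligned to rn6 with Bowtie2 2.0.2 through RSEM 1.2.29 on Ensembl gene models, and deposited as RSEM expected counts of 32402 genes, neither normalized nor filtered. CASAVA 1.8.2 is also named in the submitters' processing notes. Column names gave genotype, age and replicate, with 0 columns unused.

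Expected counts were rounded to whole numbers. A gene entered the test when its normalized counts averaged at least 5 in the 24 libraries. The test was that of edgeR 4.0.16 (R 4.3.3), with TMM scaling, the quasi-likelihood F test in 1 model of 6 groups, which share one estimate of the spread, and Benjamini-Hochberg adjustment over all 15951 tested genes with a threshold of 0.05. The study's methods name DESeq2 with the same filter and threshold, but not the libraries in the fit. Standard errors were obtained by dividing log2 fold changes by the root of their F value. A gene with at most 3 counts in every Wt library was given as a bound against 3 counts per library, which covers counting error only. Deposited counts per P6 library, from 12699346 to 24875706, limit low genes most. P-values set a difference against the spread between libraries of a group, as estimated in the model of all 6 groups.

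The genes and lists were chosen with earlier results of these data known, so that no list was independent of them. Named were Pmp22, Nmnat2, Cntf, Maob, Sema5a, Shh, Mbp, Egr2, Sox10, Jun, every gene differentially expressed at P6, with its value in each library for the 12 of smallest p in either direction, and from each list its called genes or else up to 2 members of smallest p, with the first 2 markers of other cells. Dhh, Ptch1, Smo and Gli1 were named after their values were seen. No test was made on a list. Listed genes such as Pou3f1 and Pecam1 were not analysed here, and 2 genes are not reported here, which count among the tested genes but were taken out of the lists.

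No P6 library was a copy of another: within a genotype, chi-square values per degree of freedom ran from 7.03 to 14.7. Replicate numbers were taken as names, as the labels do not say whether same-numbered Wt and Tg libraries belong together. Their deviations did not all go together, which does not settle a pairing. Alternatives were DESeq2 1.42.0 and limma voom (limma 3.58.1), RLE size factors, total counts only, other count filters, a replicate block, the P6 libraries alone, each P6 library left out and, added after seeing the data, the Y-linked level as a covariate. Promoter windows came from RefSeq (GRCr8), matched by symbol. Figures were drawn with matplotlib 3.10.9.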

Additional observations from a re-analysis of the deposited data

Results flagged for a closer look

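Among 196 groups of 4 P6 libraries, one for each named gene and genotype, 6 held a library far from the other 3 by Dixon's criterion of gap over range at the 0.05 level, which chance alone meets in about 1 in 20 groups. Tg replicate 1 was the highest of the Tg libraries in Cd9, at 1313 normalized CPM against 1166 to 1187 in the others, and in Tgfa, at 57.1 against 37.7 to 39.1. Of Kit, a mast cell gene, Tg replicate 1 had the lowest level, 14.5 against 24.7 to 26.6, and Wt replicate 4 the highest of Wt, 24.5 against 17.2 to 18.4. In Wt replicate 1 Egr3, an immediate early gene, was lowest at 9.15 (14.1 to 15.0 in the others) and Myh3, the embryonic muscle myosin, highest at 23.0 (0.446 to 3.45 in the others). These libraries were kept in all reported values.

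For 25 of 40 named genes examined for it, the difference between Tg and Wt changed between P6 and P18 (edgeR's quasi-likelihood test, Benjamini-Hochberg adjusted). As log2 differences, the P18 value minus the P6 value, the lower genes gave Maob (-1.54), Acss2 (-1.44), Ugt8 (-1.40), Ebp (-1.03), Mal (-1.03), Sema5a (-0.97), Tgfa (-0.92), Fa2h (-0.91), Cntf (-0.90), Pea15 (-0.90), Cmtm6 (-0.77), Man1b1 (-0.73), Kctd11 (-0.70), Micall1 (-0.59), Rap1gds1 (-0.58), Saraf (-0.50), Cd9 (-0.49) and Cdc42se2 (-0.40). The higher genes gave Dusp4 (1.55), Csrp2 (1.17), Adam17 (0.60) and Eif4g3 (0.33). The change was in the direction of the P6 difference in all of these. Of the genes that were not differentially expressed at P6, it was -0.70 for Mbp, 1.48 for Jun and -1.01 for Pmp22. Jun and Pmp22 had P6 differences of the opposite sign to those at P18.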

How the results depend on the processing

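The 36 genes (21 lower and 15 higher in Tg) became 184 with DESeq2 (119 and 65), 87 with limma voom (49 and 38), 257 with DESeq2 on the P6 libraries alone (159 and 98) and 9 with edgeR on them (5 and 4). The replicate block gave 19 (11 and 8), 16 of them among the 36. Whether same-numbered libraries belong together is not known, and 4 libraries a genotype are too few to settle it. Correlations of same-numbered Wt and Tg libraries were 0.0498, -0.137, -0.141 and 0.227, and of the Wt libraries replicate 4 alone correlated best with its own number. Total counts only gave 31 (11 and 20), RLE size factors 34, no count filter 26 and a mean count of at least 20 gave 40. With the Y-linked level as a covariate, chosen after seeing the data, 22 passed (14 and 8). Fits without one P6 library gave 9 to 72 genes, 5 to 44 lower and 4 to 28 higher. AC130064.1 and Nmnat2 were called in all of these settings, and each of the 36 kept its sign wherever it was tested. The cause of these shifts was not tested.

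At E21 the 2 genes became 18 with DESeq2 and 1 with the replicate block. At P18 total counts only gave 6993 genes in place of 4105. For the change from E21 to P6, DESeq2 gave 35 genes in place of 0, and fits without a library gave 0 to 2 (2 without Wt replicate 4 and 2 without Tg replicate 1). For that from P6 to P18, total counts only gave 3196 in place of 1646. With the Y-linked covariate the signs of Col1a1 (0.034), Eif2s3y (0.57) and Kdm5d (0.65) turned, none of them differentially expressed. Eif2s3y and Kdm5d are themselves part of that covariate, so their turned signs tell nothing about sensitivity. Depth limits Shh and both AABR genes, with few counts in each library.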
